A study of Homo sapiens
Mus musculus with 2 samples.

Results

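Mixed-species barcodes were examined in Drop-seq data of lymphocyte cell lines. The members were selected on their measured UMIs. A barcode was called mixed when it held at least 1000 unique molecular identifiers (UMIs) and more than 10% but less than 90% of them came from human genes. Of 1314 barcodes with at least 1000 UMIs, 139 were mixed. They were 18 of 190 barcodes in the library loaded at 150 cells/µl (9.47%, 95% exact binomial interval 5.71% to 14.6%) and 121 of 1124 in the library loaded at 300 cells/µl (10.8%, 9.01% to 12.7%).

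Each library was made from an equal mixture of 4 lines, the human T cell lines Jurkat and TALL-104, the mouse T lymphoma line EL4 and the mouse B cell hybridoma IVA12. According to the study's methods, the medium of TALL-104 contained IL-2. There was 1 library per loading concentration, called the lower and the higher loading here, so nothing checks a difference between the loadings and none was tested. Barcodes of 1 library share their source and are not replicates. The tables held 2000 and 4000 barcodes with 2398956 and 8707135 UMIs, and intervals given here cover counting error only.

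In Drop-seq, a cell and a barcoded bead are enclosed in the same droplet, and every transcript captured on the bead receives its barcode. A droplet that takes up a human and a mouse cell gives a barcode with transcripts of both species, which is why mixtures of species are used to count doublets. Free RNA in the cell suspension also enters every droplet, including those with a bead and no cell, and such droplets give barcodes with few UMIs and the mixture of the suspension. A species mixture shows only doublets between species, since a pair of cells of the same species has no mark of this kind.

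The share of human UMIs and the depth chose the members, so both are given as description. The nearest barcodes outside the limits had 8.48% human UMIs at the lower and 9.90% at the higher loading, and the nearest inside had 14.02% and 10.5%. At the upper limit the nearest inside had 89.95% and 89.97% and the nearest outside had 90.1% and 90.05%. Among barcodes within the species limits, the shallowest members had 1004 and 1000 UMIs, and the nearest barcode below the depth limit at the higher loading had 995. At the higher loading a further 38 barcodes lay between 5% and 10% human and 88 between 90% and 95%, so the limits there cut through continuous distributions.

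The cell barcodes of the deepest members are shown because 5 of them passed a stricter rule for multiplets, in which the UMIs of each species must pass the 10th percentile of barcodes holding that species alone (2535 human and 1435 mouse UMIs at the lower loading, 1818 and 1357 at the higher). The last of the 6 is shown because it occurred in both libraries, and its capitals mark every G.
lower loading, 12311 UMIs: accgtagatcgc
higher loading, 11903 UMIs: aaccccattcag
higher loading, 8526 UMIs: tggtatacaccc
higher loading, 8407 UMIs: ttatgtccgata
higher loading, 8250 UMIs: tggcgattaggt
higher loading, 3124 UMIs: tGGGGGGGGGGG
Each of the 6 differed at 3 or more of its 12 positions from every other barcode of at least 1000 UMIs in its library. The last was the only barcode shared by the libraries, with 632 UMIs and 32.6% human at the lower loading and 3124 UMIs and 26.5% human at the higher. Its 3124 UMIs fell on 3113 genes and no gene had more than 2 UMIs. It had 0.996 genes per UMI, against a median of 0.755 and a next highest value of 0.830 among mixed barcodes at the higher loading.

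Neighbouring and incomplete barcode sequences were counted in each class. No mixed barcode had a neighbour in its table at 1 mismatch (0 of 18 and 0 of 121, upper 95% limits 18.5% and 3.003%). Such neighbours were found for 2 of 87 and 1 of 318 human-only barcodes and for 3 of 85 and 9 of 685 mouse-only barcodes, where human-only and mouse-only barcodes have at least 1000 UMIs and 90% of them from 1 species. An N as the last base, which Drop-seq software writes for beads with an incomplete barcode, occurred in 1 mixed barcode at the lower and 3 at the higher loading. It occurred in 5.56% and 2.48% of mixed, 6.90% and 5.97% of human-only and 8.24% and 5.11% of mouse-only barcodes.

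The mixed barcodes fell into 3 kinds. Those past both limits of the multiplet rule numbered 1 and 4. Of the others, 8 and 39 were mostly human and 9 and 78 were mostly mouse. Few lay in the middle, with 3 of 18 and 9 of 121 between 30% and 70% human. At the lower loading 8 lay under 30% and 7 over 80%. At the higher loading 66 of 121 lay under 20% and 30 lay over 80%.

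**Figure D1:**
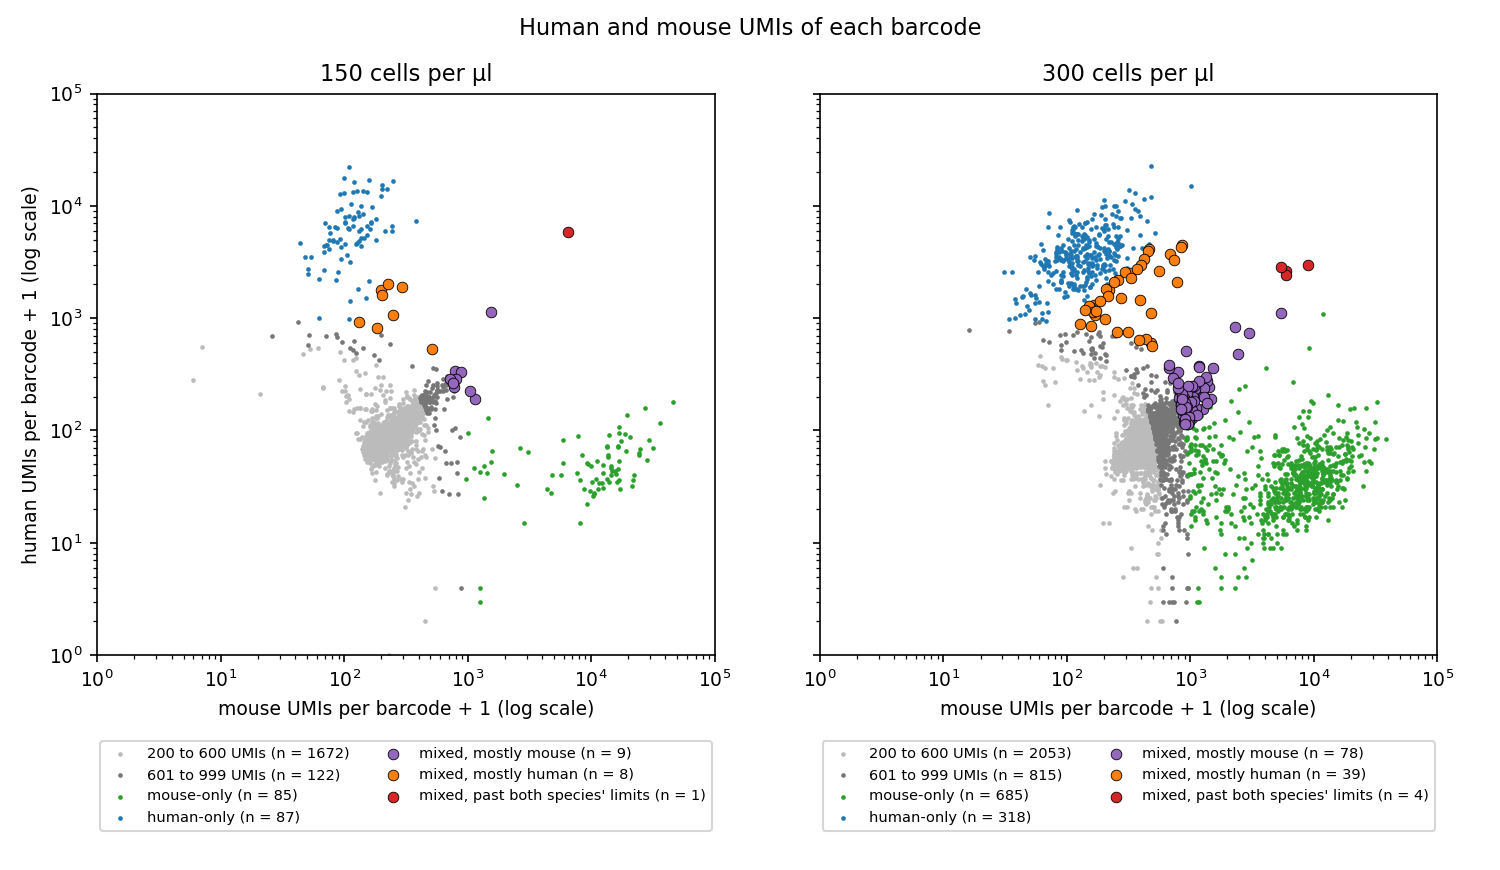
Human UMIs against mouse UMIs of every barcode of at least 200 UMIs, with 1 added to each and both axes on a log scale, in the library at 150 cells/µl (left) and at 300 cells/µl (right). The 1 and 4 barcodes past both species' limits stand alone at the upper right, the mostly human ones lie beside the human-only barcodes, and the mostly mouse ones continue the cloud of barcodes below 1000 UMIs.

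The 5 barcodes past both limits were the deepest mixed barcodes of their libraries. The one at the lower loading held 5873 human and 6438 mouse UMIs on 5022 genes. Those at the higher loading held 2409 to 2981 human UMIs and 5390 to 8922 mouse UMIs, with a human share of 25.04% to 34.7%. Single-species barcodes had medians of 6229 human and 12131 mouse UMIs at the lower loading and of 3557 and 7191 at the higher. The next deepest mixed barcode at the higher loading had 6558 UMIs, 17.0% of them human, and its 1116 human UMIs were below the limit.

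All other mixed barcodes at the lower loading had 2661 UMIs or fewer. Mostly mouse barcodes had a median of 1126 UMIs at the lower and 1143 at the higher loading, and mostly human ones had 1554 and 1788. The medians over all mixed barcodes were 922 and 943 genes.

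The share of barcodes that met the species limits fell with depth in both libraries. From 600 to below 800 UMIs it was 87.2% of 94 barcodes at the lower loading (95% exact binomial interval 78.8% to 93.2%) and 81.7% of 624 at the higher (78.5% to 84.7%). From 1000 to below 1200 UMIs it was 61.5% of 13 (31.6% to 86.1%) and 53.5% of 101 (43.3% to 63.5%). From 1500 to below 2000 UMIs it was 2 of 8 and 21.1% of 71, and from 5000 UMIs it was 1 of 122 (0.820%) and 7 of 548 (1.28%). At the higher loading 45 of the 54 mixed barcodes below 1200 UMIs were mostly mouse, whereas 16 of the 19 from 2000 to below 5000 UMIs were mostly human.

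In both libraries the median human share of mostly mouse barcodes was close to that of barcodes of 200 to 600 UMIs, which were taken whatever their species share. The mostly mouse barcodes were chosen on this share, between 10% and 50% human, so some closeness was favoured in advance. Their median human share was 26.6% at the lower loading (quartiles 23.8% and 28.8%) and 16.6% at the higher (14.5% and 18.9%). Barcodes of 200 to 600 UMIs had medians of 28.3% of 1672 barcodes and 16.4% of 2053, and barcodes above 600 and below 1000 UMIs had medians of 28.7% and 15.7%. The 5th to 95th percentile of the 200 to 600 UMI barcodes, 18.1% to 38.5% and 8.53% to 24.4%, held 6 of 9 and 71 of 78 mostly mouse barcodes.

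**Figure D2:**
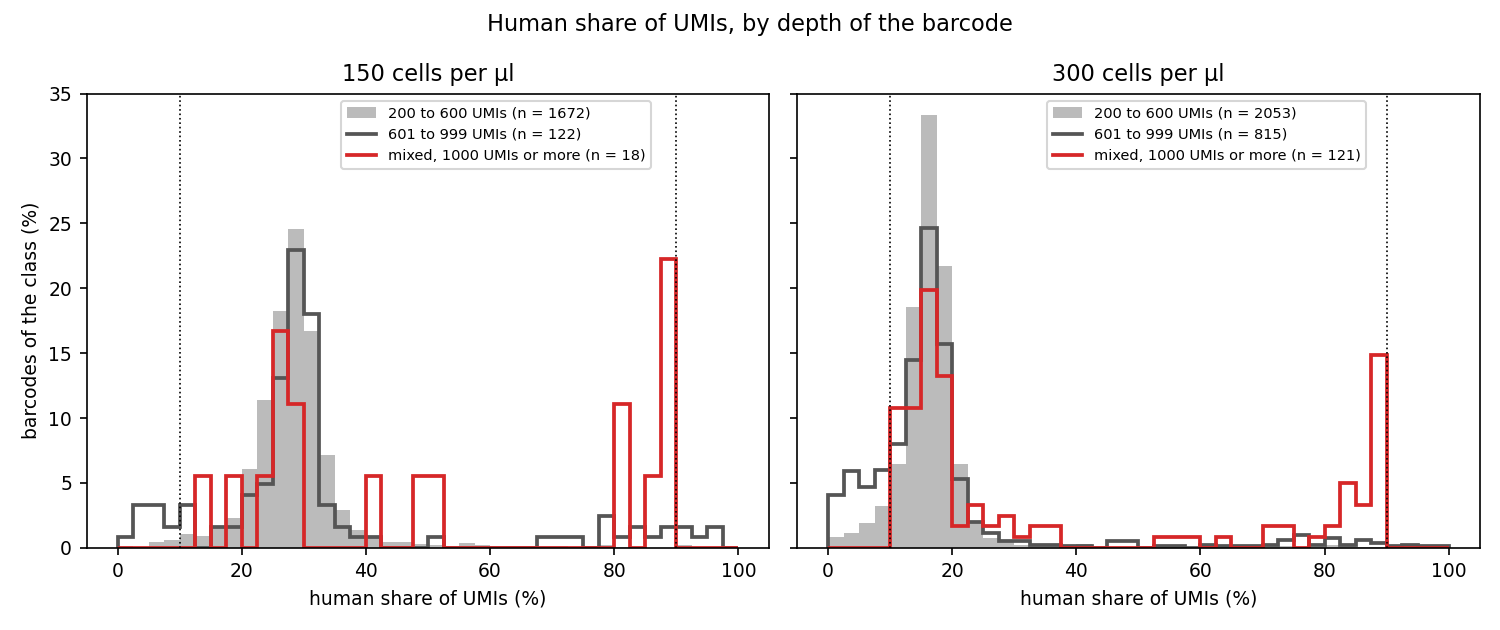
Distribution of the human share of UMIs (percent, bins of equal width) among barcodes of 200 to 600 UMIs (grey area), above 600 and below 1000 UMIs (dark line) and mixed barcodes of 1000 UMIs or more (red line), as a percentage of each class; dotted lines mark 10% and 90%. The left peak of the mixed barcodes lies under that of the shallower barcodes in both libraries, at medians of 28.3% and 16.4% human for 200 to 600 UMIs, and further mixed barcodes lie just under the 90% limit, where human-only barcodes, not drawn, begin. The mixed barcodes were chosen on this share.

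The UMIs of the minor species were then counted in each kind. Mostly mouse barcodes had a median of 289 human UMIs at the lower and 191.5 at the higher loading. Mouse-only barcodes had 45 and 34 although they were several times deeper, and mouse-only barcodes below 2000 UMIs had 43.5 and 42. Mostly human barcodes had a median of 214.5 and 311 mouse UMIs, and human-only barcodes had 111 and 136.5. The species limits place barcodes with many UMIs of the minor species among the mixed, so these values are a description of the classes.

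The mouse transcripts of the mixed barcodes were assigned to a mouse line next. EL4 descends from T cells and IVA12 from B cells, so the mouse lines differ in their lineage genes. Whether the mouse UMIs of a barcode came from a cell or from free RNA was not tested. Gene names were not paired with the identifiers in the sources used here, so lists of T- and B-lineage genes were not applied and mitochondrial shares were not analysed here. Instead the 770 mouse-only barcodes were split by the sign of the first principal component into mouse A (49 and 367 barcodes) and mouse B (36 and 318), and which of them is EL4 was not determined. Genes with at least 100 counts after scaling to 1000000 mouse UMIs (CPM) in their own group and 10-fold more than in the other, in both libraries, numbered 92 for mouse A and 60 for mouse B. The mixed barcodes took no part in this choice. For 1 and 24 barcodes, all under 2000 UMIs, the specific genes lay with the other group.

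Each of the 5 barcodes past both limits carried the specific genes of 1 mouse group. At the lower loading the barcode held 157 UMIs of mouse A genes and 2 of mouse B genes. At the higher loading 3 barcodes held 246, 122 and 143 UMIs of mouse A genes and 6, 3 and 8 of mouse B genes. The remaining one held 1 and 118. Thus 4 of the 5 were of mouse A and 1 of mouse B. The mostly mouse barcode of 6558 UMIs was also of 1 group, with 115 UMIs of mouse A and 3 of mouse B genes.

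Most shallower mixed barcodes carried genes of both mouse groups together. Among mostly mouse barcodes with at least 10 specific UMIs, 6 of 9 at the lower loading and 68 of 77 at the higher had a mouse A share between 20% and 80%. For the latter the exact 95% binomial interval was 79.0% to 94.5%. Among mostly human barcodes, 2 of 2 and 13 of 15 did. In all mixed barcodes together it was 8 of 12 and 81 of 96.

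Mouse-only barcodes with both groups were fewer. These barcodes defined the groups and the specific genes, so shares of a single group were favoured among them in advance. None of 85 mouse-only barcodes at the lower loading and 37 of 685 at the higher (5.40%, interval 3.83% to 7.37%) had a share between 20% and 80%. Among mouse-only barcodes below 2000 UMIs, close to the mixed ones in depth, 0 of 12 and 27 of 109 did (24.8%, 17.0% to 34.0%). Of the human-only barcodes, 1 and 19 reached 10 specific UMIs, and 0 of 1 and 18 of 19 (94.7%, 74.0% to 99.9%) had a share between 20% and 80%. In barcodes of 200 to 600 UMIs it was 223 of 273 and 974 of 1102 (81.7% and 88.4%). The median number of specific UMIs behind these shares was 19 and 24 per mixed barcode, 32.5 and 37 per mouse-only barcode below 2000 UMIs, and 11 and 12 per barcode of 200 to 600 UMIs. At such counts the share of a single barcode is imprecise.

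**Figure D3:**
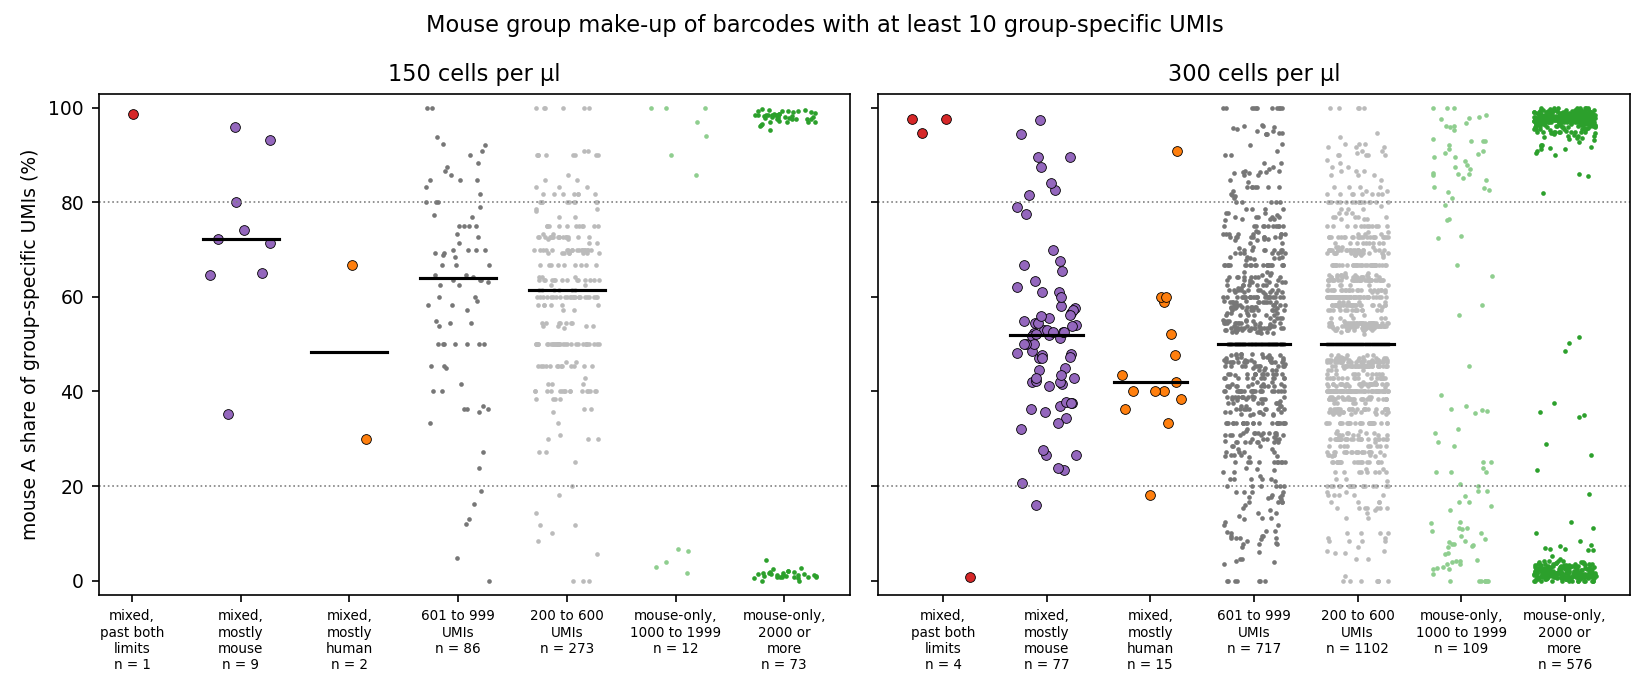
Mouse A share of the UMIs on genes specific to a mouse group (percent), 1 point per barcode with at least 10 such UMIs, by class and library, with a bar at the median where a class had a single centre; dotted lines mark 20% and 80%. Barcodes past both species' limits lie near 0% or 100%, as mouse-only barcodes of 2000 or more UMIs do apart from 10 at 300 cells/µl, whereas 68 of 77 mostly mouse barcodes at 300 cells/µl lie between the lines, as 974 of 1102 barcodes of 200 to 600 UMIs do. The mouse-only barcodes defined the groups and their genes.

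Pooled over barcodes, the mostly mouse ones had a higher mouse A share than barcodes of 200 to 600 UMIs in both libraries. At the lower loading they had 144 UMIs of mouse A genes and 49 of mouse B genes, a mouse A share of 74.6% (95% exact binomial interval 67.9% to 80.6%). Barcodes of 200 to 600 UMIs had 60.0% (59.1% to 61.0%). At the higher loading the shares were 55.4% (53.3% to 57.5%) and 49.7% (49.1% to 50.4%). Of the 1216 UMIs of mouse A genes behind the former, 115 came from the barcode of 6558 UMIs. Among mostly mouse barcodes with at least 10 specific UMIs, 3 of 9 and 8 of 77 had a mouse A share of at least 80%. Only 0 and 1 had at most 20%. The median share of these barcodes was 72.2% and 52.0%. The 3 barcodes of at least 80% at the lower loading held 27, 24 and 12 UMIs of mouse A genes. They held 2, 1 and 3 UMIs of mouse B genes. In both libraries the pooled excess may thus rest on few barcodes and need not hold for the whole class. Whether it remains without the barcodes of at least 80% was not tested. These intervals treat UMIs as independent, although many came from the same barcode. Mostly human barcodes had 57.1% (43.2% to 70.3%) and 47.1% (41.9% to 52.4%), and human-only barcodes 56.5% and 47.9%. The intervals of the mostly human barcodes included the values of human-only barcodes and of barcodes of 200 to 600 UMIs at the lower loading and at the higher. Over all mixed barcodes the mouse A share was 81.6% at the lower and 59.3% at the higher loading, and without the barcodes past both limits it was 70.7% and 54.2%.

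Expression within a species was compared between classes on sums of UMIs, 1 per class and library, with the library as a block (edgeR quasi-likelihood test, Benjamini-Hochberg adjustment). Against mouse-only barcodes, 0 of 6871 mouse genes passed an adjusted p of 0.05 in edgeR (0% called). In edgeR 124 genes had an unadjusted p under 0.05, and DESeq2 called 1 gene (0.0146%). Against mouse-only barcodes below 2000 UMIs, edgeR called 20 of 1559 genes (1.28%), 2 higher and 18 lower in mixed barcodes. Against barcodes of 200 to 600 UMIs, 0 of 5199 mouse genes were called by edgeR and 0 by DESeq2, with 152 at an unadjusted p under 0.05 in edgeR. On sums simulated with an assumed dispersion, edgeR recovered 43.5% of genes changed 4-fold in the comparison with mouse-only barcodes. In that with barcodes of 200 to 600 UMIs it recovered 65.0%, so changes of this size could be missed.

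Among human genes, 8 of 5979 were higher in mixed than in human-only barcodes in edgeR (0.134% called) and none was lower, with fitted log2 differences of 1.69 to 7.19. In edgeR 220 genes had an unadjusted p under 0.05, and DESeq2 called 4 genes (0.0669%). All 8 were higher in both libraries, although 1 of them rested on as few as 1 UMI in mixed barcodes at the lower loading. Against barcodes of 200 to 600 UMIs, 0 of 3445 human genes were called by edgeR and 0 by DESeq2, with 256 at an unadjusted p under 0.05 in edgeR. Against human-only barcodes below 2000 UMIs, of which there were 5 and 36, edgeR called 0 of 760 genes. Simulated 4-fold changes were recovered in 95 of 200 genes against human-only barcodes and in 150 of 200 genes against barcodes of 200 to 600 UMIs.

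The human gene with the largest difference was ENSG00000161570. In mixed barcodes it had 34 UMIs at the lower and 33 at the higher loading, which were 1719 CPM of human UMIs (95% exact Poisson interval 1191 to 2403) and 316 CPM (218 to 444). In human-only barcodes it had 7 UMIs and 1 UMI, which were 11.4 CPM (4.56 to 23.4) and 0.755 CPM (0.0191 to 4.205). The intervals of the classes did not overlap in either library, and the fitted log2 difference was 7.19 (SE 0.49, edgeR adjusted p = 2.2e-44). This p rests on 4 sums and mainly on dispersion shared across genes, and 25 of the 34 UMIs at the lower loading were in 1 barcode. Human-only barcodes below 2000 UMIs had 6 UMIs at the lower loading, all in 1 of 5 barcodes (889 CPM, 326 to 1934), an interval that overlapped that of the mixed barcodes, and 0 UMIs at the higher (upper limit 70.4 CPM). With species limits of 20% to 80%, edgeR called 0 human genes, so the calls of both named genes were lost.

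Its UMIs were held by few mixed barcodes. At the lower loading all 34 were in 3 of the 8 mostly human barcodes. At the higher loading 28 were in 5 of the 39 mostly human barcodes and 5 in 4 of the 78 mostly mouse barcodes. The barcodes past both limits had 0. It was found in 2 of 87 and 1 of 318 human-only barcodes.

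ENSG00000169442 was the next named gene. It had 10 UMIs (506 CPM, 95% exact Poisson interval 243 to 930) and 15 UMIs (144 CPM, 80.4 to 237) in mixed barcodes. In human-only barcodes it had 17 UMIs (27.6 CPM, 16.1 to 44.1) and 18 UMIs (13.6 CPM, 8.05 to 21.5). The intervals did not overlap in either library, and the fitted log2 difference was 3.52 (SE 0.54, edgeR adjusted p = 2.2e-07). Among human-only barcodes below 2000 UMIs at the lower loading the order was the other way, with 9 UMIs (1333 CPM, 610 to 2531), all in 1 of 5 barcodes, and its interval overlapped that of the mixed barcodes. They had 1 UMI at the higher loading (19.1 CPM, 0.483 to 106.3). In mixed barcodes, 9 and 15 of its UMIs were in 3 and 5 mostly human barcodes.

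Both genes were also frequent in human-rich barcodes below the depth limit. Barcodes of 300 to below 1000 UMIs with at least 50% human UMIs numbered 51 and 82. There ENSG00000161570 had 27 UMIs in 10 barcodes (1288 CPM) at the lower and 152 UMIs in 36 barcodes (3778 CPM) at the higher loading. ENSG00000169442 had 17 UMIs (811 CPM) and 42 UMIs (1044 CPM) there.

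The 10 human genes with at least 10 UMIs in these human-rich barcodes and at least 4-fold more of the human UMIs than in human-only barcodes, in both libraries, were therefore followed together. No mixed barcode took part in choosing them, but the list was made after the values above were seen and is given without a test. The human-only barcodes did take part, so their low values on these genes follow from the choice. It holds 4 of the 8 called genes, including both named ones, where 5979 human genes were tested. The calls and the list were both made against the same human-only barcodes, so an overlap was favoured in advance. Mostly human barcodes had 0.971% of their human UMIs on these genes at the lower loading (95% exact binomial interval 0.793% to 1.18%) and 0.224% at the higher (0.191% to 0.260%). Human-only barcodes had 0.0642% and 0.0714%, barcodes past both limits 0.0511% and 0.0737%, and mostly mouse barcodes 0.122% and 0.119%. Human-only barcodes below 2000 UMIs, closer in depth, had 0.518% (0.361% to 0.720%) and 0.0859% (0.0627% to 0.115%). At the lower loading 30 of their 35 UMIs on these genes were in 1 barcode. The human-rich barcodes that gave the list had 0.701% and 1.24%.

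The mostly human barcodes were of unlike kinds in this measure. In 3 of 8 at the lower loading the genes took 1.38% to 3.29% of the human UMIs, and in the other 5 at most 0.148%. In 5 of 39 at the higher loading they took 1.85% to 3.57%, and in the other 34 at most 0.354%. The line at 1% was drawn after the values were seen. These are the barcodes that held ENSG00000161570, with 34 and 28 of its UMIs. That gene is on the list, and these UMIs are part of the 97 and 112 that placed the barcodes above 1%. Its presence there is therefore no separate observation. Among human-only barcodes, which the list was chosen against, 1 of 87 passed 1%, with 3.003%, 1060 UMIs and 94.2% human. At the higher loading 0 of 318 did, the highest having 0.333%.

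The barcodes with the 10 genes were shallow at the higher loading. Their median was 1078 UMIs there, with 757 human and 478 mouse, against 2020, 1808 and 284 in the other 34. At the lower loading the medians were 1802 UMIs, 1600 human and 197 mouse in the 3 barcodes, and 1305, 1056 and 249 in the other 5. Their mouse parts held genes of both mouse groups, with 9 UMIs of mouse A and 7 of mouse B genes in the 3 barcodes and 28 and 31 in the 5.

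**Figure D4:**
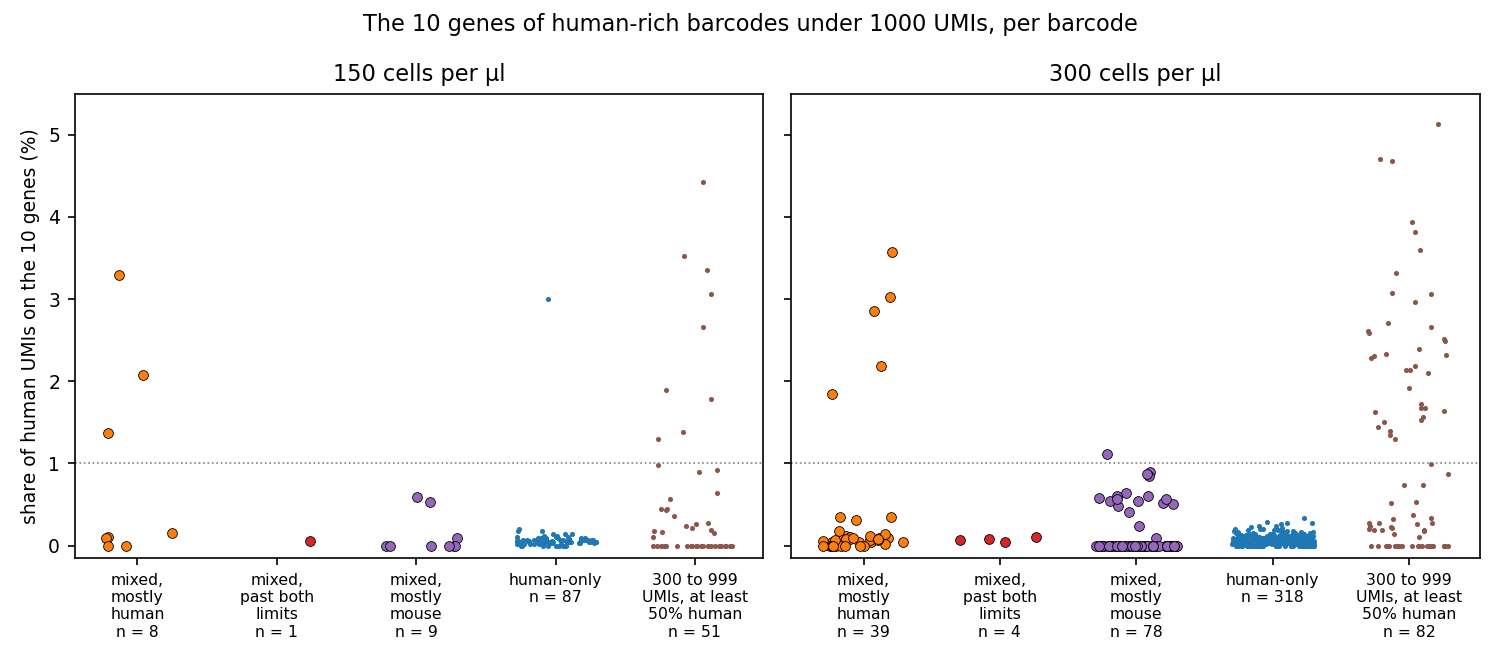
Share of human UMIs that fell on the 10 genes of human-rich barcodes of 300 to below 1000 UMIs (percent), 1 point per barcode, by class and library; the dotted line marks 1%. Of the mostly human mixed barcodes, 3 of 8 at 150 cells/µl and 5 of 39 at 300 cells/µl lie above the line, the other mostly human ones lie with the human-only barcodes, and the barcodes past both species' limits are at most at 0.101%.

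Genes per barcode were compared after thinning every barcode to 1000 UMIs. Mixed barcodes had a median of 780 genes at the lower loading (quartiles 753 and 800) and 795 at the higher (777 and 812). Human-only barcodes had 732 (718 and 754) and 765 (749 and 781), and mouse-only barcodes 701 (685 and 717) and 728 (712 and 744). Mixed barcodes thus had the most genes at equal depth in both libraries, but their quartiles overlapped those of human-only barcodes. The rule that chose them requires genes of both species, which are counted separately. A higher number of genes was therefore favoured in advance. Among single-species barcodes below 2000 UMIs the medians were 753 and 777 for human-only and 714.5 and 726 for mouse-only barcodes. With 1 library per loading this difference was not tested.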

How the data were processed

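UMI counts per gene and barcode were used as deposited by the authors, 1 table per library (24990 and 28377 genes). The submitters' processing notes name Cell Ranger 1.2.0, STAR 2.4.2a, hg19 and mm10. The study's methods describe downsampling of reads, Drop-seq tools and a joint human and mouse reference. They give cellRanger_1.2.0 as the name of that reference. Whether the deposited counts came from downsampled reads is not given in the sources used here. Filters that leave out shallow barcodes or repair barcodes change which barcodes count as mixed.

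Members and lists were chosen with earlier results of these data known. Genes are given by identifier, since 0 of 29259 identifiers matched the name table at hand (59792 human genes), so the planned lineage lists and mitochondrial share were not analysed here. No doublet caller was run and no other filter was set on barcodes.

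UMIs were summed per class and library and tested with edgeR 4.0.16 (R 4.3.3; TMM, filterByExpr, library as block, quasi-likelihood test, Benjamini-Hochberg adjustment at 0.05), with DESeq2 1.42.0 as an alternative. The sums come from 1 mixture of lines, and the block takes up differences between the libraries. The p-values rest mainly on counting error and on dispersion shared across genes. A gene's own variation between these libraries weighs little in them. The p-values do not cover the spread between mixtures. The test was tried on simulated sums with 200 genes changed. All genes were given 1 assumed dispersion that was not estimated from these data, so recovery in the real sums may differ. The genes to be named had the largest fold change among called genes with the same sign and at least 100 CPM of that species in the higher class in both libraries; of 4 such human genes, the first 2 are given.

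The mouse groups used log counts scaled to 10000 UMIs and 2000 variable genes, each seen in 10 or more barcodes. A floor of 3 UMIs stood for absent genes in the 10-fold rule. Intervals are exact binomial (Clopper-Pearson) or Poisson at 95%, and UMIs remove PCR copies only in part. Alternatives concerned species and UMI limits, multiplets, depth, scaling, filters and single libraries.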

Additional observations from a re-analysis of the deposited data

How the results depend on the processing

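The number of mixed barcodes depended on the limits. It was 9 and 25 at 150 and 300 cells/µl with species limits of 20% to 80%, 253 and 1388 with a minimum of 500 UMIs, 4 and 26 with a minimum of 2000 UMIs, and 247 at 300 cells/µl with limits of 5% to 95%. Called mouse genes against mouse-only barcodes (0) became 1 with DESeq2, 3 without TMM, 24 with a minimum of 500 UMIs, 20 against single-species barcodes below 2000 UMIs and 5 after thinning to 1000 UMIs. Against barcodes of 200 to 600 UMIs (0) they became 4 without TMM and 1 with limits of 20% to 80%. Called human genes against human-only barcodes (8) became 4 with DESeq2 and without TMM, 3 without a filter, without multiplets and for mostly human barcodes alone, 5 after thinning, 314 with a minimum of 500 UMIs (158 higher, 156 lower), and 0 with limits of 20% to 80% or against single-species barcodes below 2000 UMIs. The comparison of human genes with barcodes of 200 to 600 UMIs stayed at 0 calls under every alternative run, DESeq2 included.

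The mouse A share of mixed barcodes became 96.4% and 70.5% with a minimum of 2000 UMIs and 70.7% and 54.2% without multiplets. At 300 cells/µl it became 69.9% with limits of 20% to 80% and 56.2% with genes specific at 20-fold. Genes per barcode became 802 in both libraries with limits of 20% to 80%, and 429 and 434 when thinned to 500 UMIs, which is a lower depth by construction. Other causes were not tested.

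Without the library at 300 cells/µl, genes beyond 2-fold rose from 882 to 2697, 366 to 1953, 627 to 2344 and 294 to 1097 (mouse against mouse-only and 200 to 600 UMIs, then human). Without that at 150 cells/µl they were 877, 358, 696 and 414. No test is possible there, since no residual degrees of freedom remain. The counts for both libraries used fitted log2 differences, and those for a single library used raw log2 ratios without TMM. The counts are therefore not like for like. Mostly mouse or human barcodes alone, 5-fold and 20-fold genes, mouse groups from barcodes of at least 2000 UMIs and leaving out the barcode of nearly all G were chosen after seeing the data. Lineage lists, the list without immunoglobulin genes and mitochondrial shares were not run for want of gene names. With 18 and 121 barcodes, depth limits the human and mouse sums to 19774 and 16874 UMIs at 150 cells/µl.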
